A study of Mus musculus with 53 samples.

Results

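The genes described here encode receptors and secreted proteins of the visceral endoderm, the epithelium that encloses the early mouse embryo. They comprise 9 of the 18193 genes on the arrays: the uptake receptors and adaptor Cubn, Amn, Dab2 and Lrp2, and the secreted proteins Afp, Ttr, Apoa1, Apoe and Rbp4. A gene was represented by its probe sets with exactly 1 gene symbol, led by the brightest over all arrays. The study measured RNA on 53 Affymetrix arrays in 15 groups and followed embryonic stem (ES) cells that lack Ezh2 or Eed, before and during differentiation. Both proteins are subunits of Polycomb repressive complex 2, which methylates histones at repressed genes.

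Day 0 stands for undifferentiated cells, and the later days are counted from the withdrawal of leukaemia inhibitory factor (LIF), the cytokine that holds mouse ES cells undifferentiated. Ezh2-null cells were profiled at day 0 (6 arrays), day 2 (4), day 6 (5) and day 8 (2). Eed-null cells were profiled at day 0 (5), day 2 (2) and day 6 (2). The wild-type arrays, from lines J1, CJ7 and E14tg1, numbered 7 at day 0, 4 at day 2, 5 at day 6 and 2 at day 8. The remaining groups were mesoendodermal cells carrying T-GFP, in which the brachyury (T) promoter drives GFP (2), neuronal progenitors marked by Sox1-GFP (3), neuronal stem cells derived from progenitors (2), and mouse embryonic fibroblasts (MEF, 2). All ES lines were grown on feeder cells, which were depleted by letting them attach to plates before harvest. The titles do not name the parental line or the allele of either mutant, so genotype and line cannot be told apart. They call the replicates biological but give no step at which they were repeated, and p-values therefore cover only the spread between these samples, which may in part be technical. No group is labelled as visceral endoderm.

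Visceral endoderm takes up maternal proteins from its outer surface and passes plasma-type proteins to the embryo. Cubilin (Cubn) is a ligand-binding receptor that has no transmembrane segment and is anchored and carried to the surface by amnionless (Amn). Megalin (Lrp2) is a large LDL-receptor family member that works with both, and Dab2 is the clathrin adaptor that links these receptors to internalisation. Afp (alpha-fetoprotein), Ttr (transthyretin, a carrier of thyroid hormone and of the retinol-binding protein), Apoa1 and Apoe (apolipoproteins) and Rbp4 (the retinol carrier) are classic secreted products of visceral endoderm and later of liver.

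The start regions of the 3 genes that rose together in cells labelled Eed-null, and of Afp, which was not called there, are shown so that both kinds of start can be set side by side in sequence. They are RefSeq promoters on GRCm38.p6, 250 bases before to 50 bases after an annotated start, and 8 of the 9 genes matched the table, with 12 windows in all. Capitals mark matches to the GATA motif NGATAA, the HNF1 motif GTTAAT, the HNF4 motif CAAAGNCCA and the TATA box TATAAA, in which N is any base, searched on both strands; the FOX motif TNTTTAC was searched too. The windows are Cubn at chr2:13491827-13492126 (minus strand), Amn at chr12:111270846-111271145 (plus strand), the first start of Dab2 at chr15:6299539-6299838 (plus strand), its second start at chr15:6386498-6386797 (plus strand) and Afp at chr5:90490464-90490763 (plus strand).
Cubn: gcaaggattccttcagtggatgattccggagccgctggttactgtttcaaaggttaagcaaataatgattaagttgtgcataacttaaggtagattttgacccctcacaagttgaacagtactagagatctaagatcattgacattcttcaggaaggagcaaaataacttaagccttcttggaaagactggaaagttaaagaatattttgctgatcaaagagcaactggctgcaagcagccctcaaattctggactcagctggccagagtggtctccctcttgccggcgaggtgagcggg
Amn: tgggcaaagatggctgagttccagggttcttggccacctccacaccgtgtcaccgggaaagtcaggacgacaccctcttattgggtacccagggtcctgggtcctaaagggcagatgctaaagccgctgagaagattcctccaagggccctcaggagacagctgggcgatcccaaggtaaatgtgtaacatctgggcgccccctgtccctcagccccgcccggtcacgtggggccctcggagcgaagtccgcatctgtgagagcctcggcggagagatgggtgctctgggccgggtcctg
Dab2, the first start: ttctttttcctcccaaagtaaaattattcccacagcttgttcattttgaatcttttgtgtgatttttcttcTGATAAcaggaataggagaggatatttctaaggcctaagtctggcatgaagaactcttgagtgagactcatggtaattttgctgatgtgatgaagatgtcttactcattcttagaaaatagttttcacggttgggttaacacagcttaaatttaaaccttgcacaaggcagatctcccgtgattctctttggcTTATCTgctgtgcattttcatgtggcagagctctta
Dab2, the second start: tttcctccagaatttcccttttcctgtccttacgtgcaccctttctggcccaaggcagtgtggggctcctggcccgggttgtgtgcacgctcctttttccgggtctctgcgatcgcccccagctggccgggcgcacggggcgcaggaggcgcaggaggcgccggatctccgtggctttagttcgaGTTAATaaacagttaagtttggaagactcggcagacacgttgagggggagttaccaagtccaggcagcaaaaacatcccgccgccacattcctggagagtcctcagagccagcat
Afp: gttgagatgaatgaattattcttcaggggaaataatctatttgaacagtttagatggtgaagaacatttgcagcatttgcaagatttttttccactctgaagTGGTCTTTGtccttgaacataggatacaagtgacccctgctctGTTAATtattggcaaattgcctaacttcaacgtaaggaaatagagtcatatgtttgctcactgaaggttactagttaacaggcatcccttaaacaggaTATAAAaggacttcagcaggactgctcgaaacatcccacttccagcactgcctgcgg

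The windows of Cubn and Amn held no match to any of the 5 motifs. With the start base counted as 0, the first start of Dab2 held 2 GATA matches, TGATAA from base -179 and, on the opposite strand, TTATCT from base 14, and its second start held 1 HNF1 match from base -65. The Afp window held an HNF4 match on the opposite strand from base -148, an HNF1 match from base -105 and a TATA box from base -7. Of 32851 promoters in the table, 25.3% held the GATA motif, 7.1% the HNF1 motif, 12.4% the FOX motif, 1.98% the HNF4 motif and 13.6% the TATA box. The 3 genes that rose together therefore shared none of these letters across their printed windows. A match is a description of letters and no evidence of binding.

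Marker levels gave the background against which the genes are read. All 10 naive pluripotency genes lay above the array median in every day 0 array, 9 of 9 primitive streak genes did in both T-GFP arrays, 8 to 9 of 9 neural genes did in the Sox1-GFP and neuronal stem cell arrays, and 18 of 19 fibroblast genes did in both MEF arrays. Ezh2 read 169 to 246 signal units in Ezh2-null cells at day 0, against 1185 to 1786 in wild-type cells (log2 fold change -2.59 ± 0.13, adjusted p = 2.2e-19, limma). The Eed probe set read 2820 to 3099 in the arrays labelled Eed-null at day 0, against 2172 to 2885 in wild-type arrays, so transcript level gives no check of that label and every direction drawn from those arrays rests on their titles. On a score built from differences between probe sets of 1 gene, the Eed-null arrays of day 0 (14.1 to 19.5) also stood apart from the Ezh2-null (-5.68 to -4.48) and wild-type arrays (-7.26 to -5.97), a separation that cannot be told apart from the genotype. On the same kind of score the arrays of days 2 and 6 fell into a first set (wild-type and Ezh2-null replicates 1 and 2) and a second set (all others, Eed-null included).

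Cubn, Amn and Dab2 were higher in Eed-null than in wild-type ES cells before any differentiation was induced, while Lrp2, the partner receptor, was not called. A gene was called where limma on log2(signal + 32) gave a difference of 2-fold or more with a Benjamini-Hochberg adjusted p below 0.05. Apoa1 lay below the array median in all 53 arrays and was not tested. Of the 8 genes tested, 3 were called higher, where 1.52% of all 13807 tested genes were called higher and 0.739% lower. Afp passed the filter on dim signals only through 3 arrays of Ezh2-null cells at days 6 and 8, and Ttr through 8 arrays, 7 of them from days 6 and 8. In bulk RNA, fewer cells of a type and less RNA per cell cannot be told apart.

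Cubn read 583.9, 343.1, 273.7, 309.4 and 86.6 signal units in the 5 Eed-null arrays, against 46.4 at the lowest, 48.8 at the median and 139.8 at the highest in the 7 wild-type arrays. Of the Eed-null arrays, 4 lay above every wild-type array, and replicate 5 lay below wild-type replicate 3, so the groups overlapped. The means were 319 ± 178 in Eed-null cells (SD, n = 5) and 62.2 ± 34.4 in wild-type cells (SD, n = 7), a log2 fold change of 1.78 ± 0.24 (SE, adjusted p = 1.53e-07, limma).

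Amn read 175.7, 144, 146, 204.5 and 91.6 in Eed-null arrays, against 19.6 at the lowest, 43.3 at the median and 70.1 at the highest in wild-type arrays. The groups did not overlap, as in 14.1% of all tested genes in this direction. The log2 fold change was 1.27 ± 0.15 (adjusted p = 4.64e-09, limma). With the largest pseudocount tried it was 0.69, below 2-fold.

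Dab2 read 743.1, 586.7, 421, 449 and 227.8 in Eed-null arrays, against 111.8 at the lowest, 129.2 at the median and 228.6 at the highest in wild-type arrays. The lowest Eed-null array, replicate 5, and the highest wild-type array, replicate 3, were almost level. The log2 fold change was 1.52 ± 0.20 (adjusted p = 6.58e-08, limma). Without Eed-null replicate 5 and wild-type replicate 3 the changes were 2.28 for Cubn, 1.48 for Amn and 1.85 for Dab2. These arrays were the lowest Eed-null and the highest wild-type array for each of these genes, and were chosen after seeing the data. Leaving them out could only widen the differences, so these values are no support for them.

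Lrp2 read 343.4, 224.8, 230.7, 157 and 227 in Eed-null arrays, against 177.6 at the lowest, 250.8 at the median and 308.8 at the highest in wild-type arrays, and the groups overlapped throughout (log2 fold change -0.08 ± 0.27, adjusted p = 0.848). Of the uptake machinery, Lrp2 was thus the member that was not called at day 0.

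Among the secreted proteins, Apoe was 2055.2, 2178.6, 1735.4, 2238.9 and 1756.6 in Eed-null arrays, against 706.8 at the lowest, 1423.9 at the median and 1654.9 at the highest in wild-type arrays. All Eed-null arrays lay above all wild-type arrays, as in 14.1% of all tested genes, but the log2 fold change of 0.69 ± 0.21 (adjusted p = 0.00831) was below 2-fold. The lowest 2 wild-type arrays, at 722.3 and 706.8, were the J1 arrays. Rbp4 averaged 199 ± 29.2 in Eed-null cells and 137 ± 25 in wild-type cells (SD, n = 5 and 7), a log2 fold change of 0.45 ± 0.15 (adjusted p = 0.0166), also below 2-fold.

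Afp read 3.1 to 5.1 in Eed-null arrays and 2.4 to 6.9 in wild-type arrays at day 0. Ttr read 29.6 to 62.3 in Eed-null arrays and 22.8 to 37 in wild-type arrays (log2 fold change 0.17 ± 0.37, adjusted p = 0.744). Apoa1 read 16.6 to 28.6 in Eed-null arrays and 11 to 25 in wild-type arrays. Of the tested secreted proteins none was called at day 0, where Cubn, Amn and Dab2 were.

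**Figure D1:**
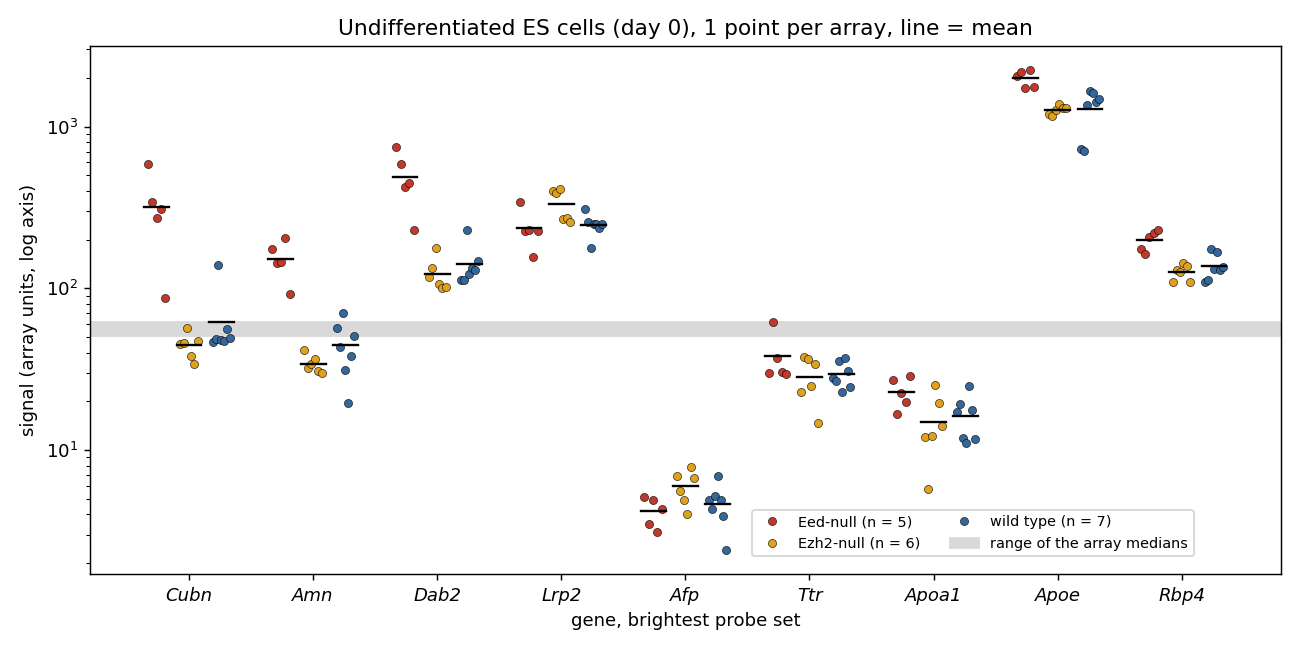
Signal of each gene's brightest probe set in every day 0 array (log axis, array units), for Eed-null (5), Ezh2-null (6) and wild-type (7) arrays, with the mean as a line. Grey marks the range of the day 0 array medians, 58.3 to 62.2 in Eed-null arrays and 50.5 to 54.6 in the others. Cubn, Amn and Dab2 are high in Eed-null arrays, with replicate 5 lowest of the 5, while Afp, Ttr and Apoa1 lie mostly under the grey band in all 3 groups.

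In Ezh2-null cells no day 0 rise was called. Cubn was 34 at the lowest, 45.7 at the median and 57.1 at the highest of the 6 Ezh2-null arrays, Amn 30, 33.1 and 41.5, and Dab2 99.9, 112 and 178. None of the 8 genes was called against wild type (0 also at an unadjusted p under 0.05, limma), and 0.0507% of all tested genes were called in this comparison. The log2 fold changes were -0.24 ± 0.23 for Cubn, -0.18 ± 0.14 for Amn, -0.15 ± 0.19 for Dab2, 0.37 ± 0.26 for Lrp2, 0.06 ± 0.20 for Apoe and -0.09 ± 0.15 for Rbp4 (SE).

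The mutants were also compared directly. Cubn (log2 fold change -2.02 ± 0.25), Amn (-1.45 ± 0.15) and Dab2 (-1.67 ± 0.20) were called lower in Ezh2-null cells, set against Eed-null cells, where 1.43% of all tested genes were called lower. Apoe (-0.63 ± 0.22, adjusted p = 0.0195) and Rbp4 (-0.54 ± 0.16, adjusted p = 0.00607) differed in the same direction by less than 2-fold. For these 5 genes every Ezh2-null array lay below every Eed-null array, as in 17.5% of all tested genes. The Eed-null arrays serve in both comparisons, so these results are not independent.

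Fibroblast markers moved with part of this result. The summed signal of the 19 fibroblast genes was 14566, 9165, 8272, 8824 and 1827 in the 5 Eed-null arrays of day 0, against 1064 to 5517 in wild-type and 58091 to 69420 in MEF arrays. Between 10 and 18 of the 19 lay above the array median in Eed-null arrays and between 9 and 16 in wild-type arrays, and 9 were called higher in Eed-null cells, led by Col3a1 (1.56 ± 0.31), Col1a2 (1.98 ± 0.41), Fbln2 (2.11 ± 0.50) and Col1a1 (1.99 ± 0.53). Replicate 5, with the lowest fibroblast sum, was also the lowest for Cubn, Amn and Dab2. In MEF, Cubn read 37 and 35.4 and Amn 28.3 and 28.2, while Dab2 read 1629 and 2053. The part of the fibroblast signal in the differences of Cubn, Amn and Dab2 was not tested.

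Other gene lists gave context for the same comparison, in which the median log2 fold change of all tested genes was 0.04. Of 11 tested endoderm transcription factors, 1 rose, Sox17 (1.54 ± 0.33, adjusted p = 0.000201), with a list median of 0.34. Of 11 tested partners of the receptors, 1 rose, Tcn2 (1.00 ± 0.11), which carries vitamin B12 in plasma, with a list median of 0.42. Of 20 other yolk sac and visceral endoderm genes on the arrays, only 10 passed the filter on dim signals and were tested. Of these 10, 2 rose, Rhox5 (1.37 ± 0.38) and Cited1 (1.03 ± 0.18), and 1 fell, Spink1 (-1.10 ± 0.45), with a median of 0.41. Of 12 parietal endoderm and basement membrane genes, 5 rose, with Srgn (2.38 ± 0.27), Col4a2 (1.88 ± 0.19), Col4a1 (1.76 ± 0.20) and Thbd (1.28 ± 0.20) in front and a median of 0.78. The summed signal of that list was 6973 to 12410 in Eed-null and 3424 to 5000 in wild-type arrays, without overlap, and the MEF arrays read 15336 to 17910. Of 7 tested trophoblast genes 2 rose, Krt7 (1.56 ± 0.19) and Hand1 (1.87 ± 0.31), and no naive pluripotency, primitive streak or neural gene was called (0 of 10, 9 and 9, limma). In Ezh2-null cells at day 0 no gene of any of these lists was called.

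The probe sets of a gene did not all repeat the lead. For Cubn the other probe set, 1426990_at, averaged 178 ± 95.3 in Eed-null and 33.9 ± 21.2 in wild-type arrays at day 0 (SD, n = 5 and 7). For Dab2 the log2 fold change was 0.58 at 1423805_at, 0.39 at 1430604_a_at and -0.07 at 1429693_at, against 1.52 at the brightest, 1420498_a_at. The mean over the probe sets of Dab2 gave 0.60 (adjusted p = 7.72e-06), below 2-fold. Amn, Apoe and Rbp4 had 1 probe set each.

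**Figure D2:**
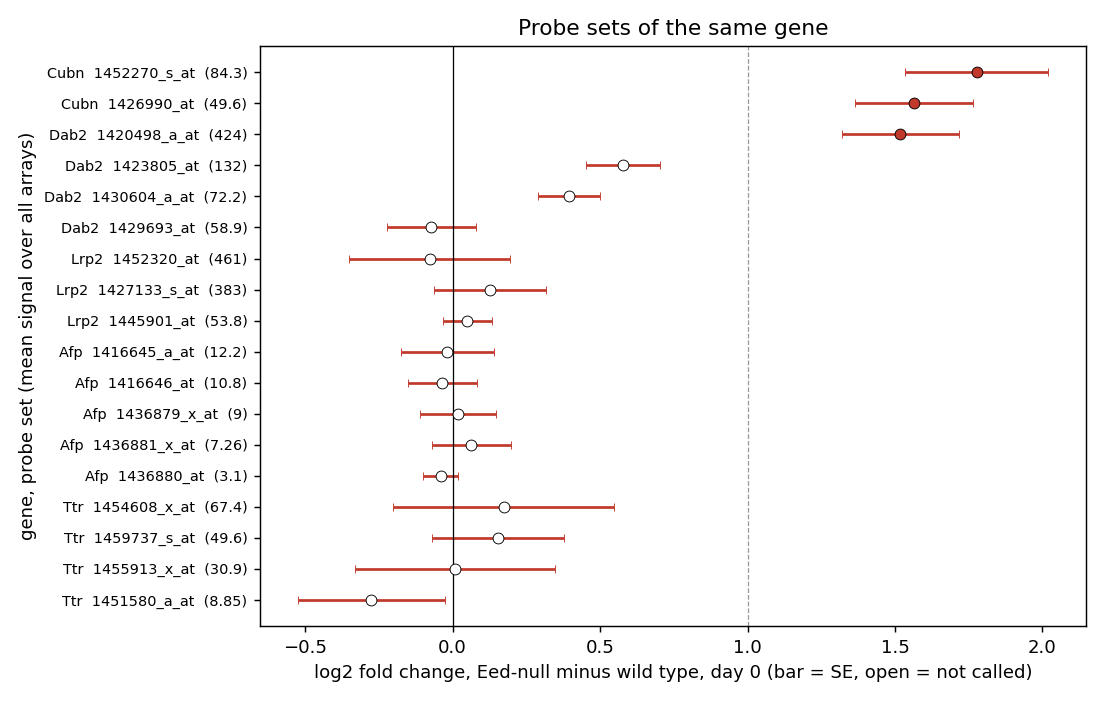
Log2 fold change of Eed-null minus wild-type cells at day 0 (horizontal axis; bar, SE) for every probe set of the genes with several tested probe sets, with the mean signal over all arrays in brackets; filled points were called. Both Cubn probe sets lie beyond the 2-fold line at 1, and of the 4 Dab2 probe sets only the brightest does.

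The receptors followed different courses after LIF withdrawal. In wild-type cells Lrp2 read 399.1, 504.1, 892 and 893.2 at day 2, all above the day 0 arrays, which reached 308.8; 9.08% of all tested genes lay above in this way. The log2 fold change was 1.27 ± 0.29 (adjusted p = 0.00078), and Lrp2 was the only one of the 8 genes called in that comparison, where 3.43% of all tested genes were called. The 2 J1 arrays, which are also the first array set, gave the 2 lower values. With only J1 arrays as wild type the change was 0.62 (adjusted p = 0.41), and with only the first set it was 0.80, below 2-fold.

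At day 6 Lrp2 in wild-type cells read 274.3, 394.2, 654.8, 633.6 and 682.1, and its difference from day 0, 0.94 ± 0.27 (adjusted p = 0.00328), was below 2-fold. At another Lrp2 probe set, 1427133_s_at, the difference was called (1.24, adjusted p = 5.1e-07), and at 1445901_at it was 0.075. The 3 higher arrays are the second set and hold both J1 and CJ7 cells. At day 8 it read 254.7 and 249.1, below every day 6 array, as did 10.7% of all tested genes (log2 fold change -0.91 ± 0.39, adjusted p = 0.208). The day 8 arrays lie beside the first set on the array score, which held the 274.3 and 394.2 of day 6. Day and array set are therefore mixed in that change. In Eed-null cells Lrp2 read 905.3 and 901.3 at day 6, against the 5 day 0 values given above, a rise of 1.83 ± 0.39 (adjusted p = 0.000244; 5.55% of all tested genes called higher). The other Lrp2 probe sets gave 1.52 (1427133_s_at) and -0.019 (1445901_at) for this rise. Both Eed-null arrays of day 6 are in the second set, so day and array set cannot be told apart in it. In Ezh2-null cells at day 6 Lrp2 read 205.2 and 223.5 in the first set and 730.7 to 943.9 in the second. Their day 0 arrays read 258.3 to 412.1.

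At its brightest probe set Dab2, the adaptor, was called higher at day 6 than at day 0 in all 3 genotypes. In wild-type cells it read 630.5, 538.5, 349.5, 263.7 and 260.8 at day 6, all above the day 0 arrays, as in 18% of all tested genes, with a change of 1.29 ± 0.20 (adjusted p = 4.58e-07), the 1 call among the 8 genes, where 5.96% of all tested genes were called higher. In Ezh2-null cells it read 616.6, 663, 963.9, 662.9 and 750.7 at day 6 (2.31 ± 0.20, adjusted p = 5.02e-13; 8.64% of all tested genes called higher). In Eed-null cells it read 940.9 and 946.2, above all 5 day 0 arrays, as in 27.2% of all tested genes (1.00 ± 0.28, adjusted p = 0.00434). That call is lost without Eed-null replicate 3 (0.98) or 5 (0.78) of day 0. The first set of wild-type arrays was the higher at day 6, at 538.5 to 630.5, against 260.8 to 349.5 in the second, and with the second set alone the wild-type change was 0.92, below 2-fold. The other Dab2 probe sets gave 0.86 (1423805_at), 0.31 (1430604_a_at) and 0.15 (1429693_at) in wild-type cells, none of them called, and the mean of the probe sets gave 0.66. In Ezh2-null cells that mean gave 1.25, which was called, and in Eed-null cells 0.73, which was not.

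At day 6 Dab2 was therefore compared within the array sets as well. The change of Ezh2-null minus wild-type cells was 0.86 ± 0.21 (adjusted p = 0.00207) over both sets, 0.13 (adjusted p = 0.882) in the first set and 1.35 (adjusted p = 6.48e-05) in the second. Eed-null cells, all in the second set, exceeded wild type by 1.23 ± 0.28 (adjusted p = 0.00185) over all wild-type arrays and by 1.60 (adjusted p = 6.23e-05) against the wild-type arrays of the second set. Of the 8 genes, 1 was called in each of these 2 comparisons, Dab2 for Eed-null and Apoe for Ezh2-null cells, where 3.1% and 3.03% of all tested genes were called. These Dab2 values are those of the brightest probe set. For Ezh2-null minus wild-type cells the others gave 0.64 (1423805_at), 0.33 (1430604_a_at) and 0.044 (1429693_at), none of them called. With the mean of the probe sets Dab2 was not called in Eed-null cells either. At day 8 wild-type Dab2 read 1054.3 and 773.8, above all arrays of day 6, as in 13.1% of all tested genes (1.17 ± 0.28, adjusted p = 0.0158; 0.963% called). That call is lost when any of wild-type replicates 4 and 5 of day 6 or 1 and 2 of day 8 is left out. It is also lost with the first array set alone, beside which the day 8 arrays lie on the array score.

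The change from day 0 to day 6 differed between Ezh2-null and wild-type cells for Dab2 by 1.01 ± 0.28 (adjusted p = 0.0103) and for Apoe by -1.09 ± 0.31 (adjusted p = 0.0105), 2 of 8 genes where 3.09% of all tested genes were called. Both differences are lost in the first array set alone, at 0.28 for Dab2 and -0.44 for Apoe, and were 1.5 and -1.51 in the second. Both also sit at the fold limit. Leaving out 1 array takes Dab2 to as little as 0.88 (without wild-type replicate 5 of day 6), with the call lost in 10 of 23 such fits, and Apoe to as little as -0.91 (without Ezh2-null replicate 5 of day 6), with the call lost in 4 of 23.

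Cubn ran the opposite way in Eed-null cells. After the 5 day 0 values above, it read 92.2 and 78.8 at day 2 and 54.5 and 73.3 at day 6. The day 6 arrays lay below all day 0 arrays (-1.70 ± 0.35, adjusted p = 0.000132; 4.58% of all tested genes called lower, and 28.9% without overlap). Amn read 93.6 and 89.7 at day 2 and 89.7 and 59.8 at day 6, a change from day 0 of -0.77 ± 0.21 (adjusted p = 0.00314) that stayed below 2-fold. In wild-type cells neither was called between day 0 and day 6, with -0.02 ± 0.24 for Cubn and 0.25 ± 0.15 for Amn. Wild-type Cubn read 106.5 to 108.1 in the first set of day 6 and 31.6 to 35.4 in the second. The wild-type day 0 arrays read 46.4 to 139.8. Both Eed-null arrays of day 6 are in the second set, so genotype and array set are mixed when the courses are compared. The difference between the courses was itself called for Cubn (-1.68 ± 0.42, adjusted p = 0.00411) and Amn (-1.02 ± 0.25, adjusted p = 0.00407), where 4.69% of all tested genes were called. The Amn value sits at the fold limit: leaving out 1 array ended the call in 8 of 19 fits, with -0.81 (adjusted p = 0.0885) without Eed-null replicate 2 of day 6. Without replicate 1 of day 6, Cubn had an adjusted p of 0.0553.

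At day 2 none of the 8 genes was called between Eed-null and wild-type cells (0 also at an unadjusted p under 0.05, limma; 1.04% of all tested genes called). Cubn, Amn, Dab2 and Apoe were nevertheless higher in both Eed-null arrays than in all 4 wild-type arrays, as were 13.9% of all tested genes; for Cubn the values were 92.2 and 78.8 in Eed-null cells, against 56.8, 61.8, 48.5 and 40.7 in wild-type cells. Between Ezh2-null cells and their wild-type counterparts at day 2 none was called either (0 at an unadjusted p under 0.05; 0.123% of all tested genes called).

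Late in wild-type differentiation Cubn was high in some arrays. It read 108.1, 106.5, 35.3, 35.4 and 31.6 at day 6, the 2 high arrays being the first set, and 189.6 and 122.3 at day 8. The change from day 6 to day 8 was 1.05 ± 0.35 (adjusted p = 0.0872) and was not called. The day 8 arrays lie beside the first set on the array score, so day and array set are mixed in it. In Ezh2-null cells at day 8 Cubn read 54.1 and 51.2, below both wild-type arrays, as in 22.5% of all tested genes (-1.13 ± 0.41, adjusted p = 0.163).

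**Figure D3:**
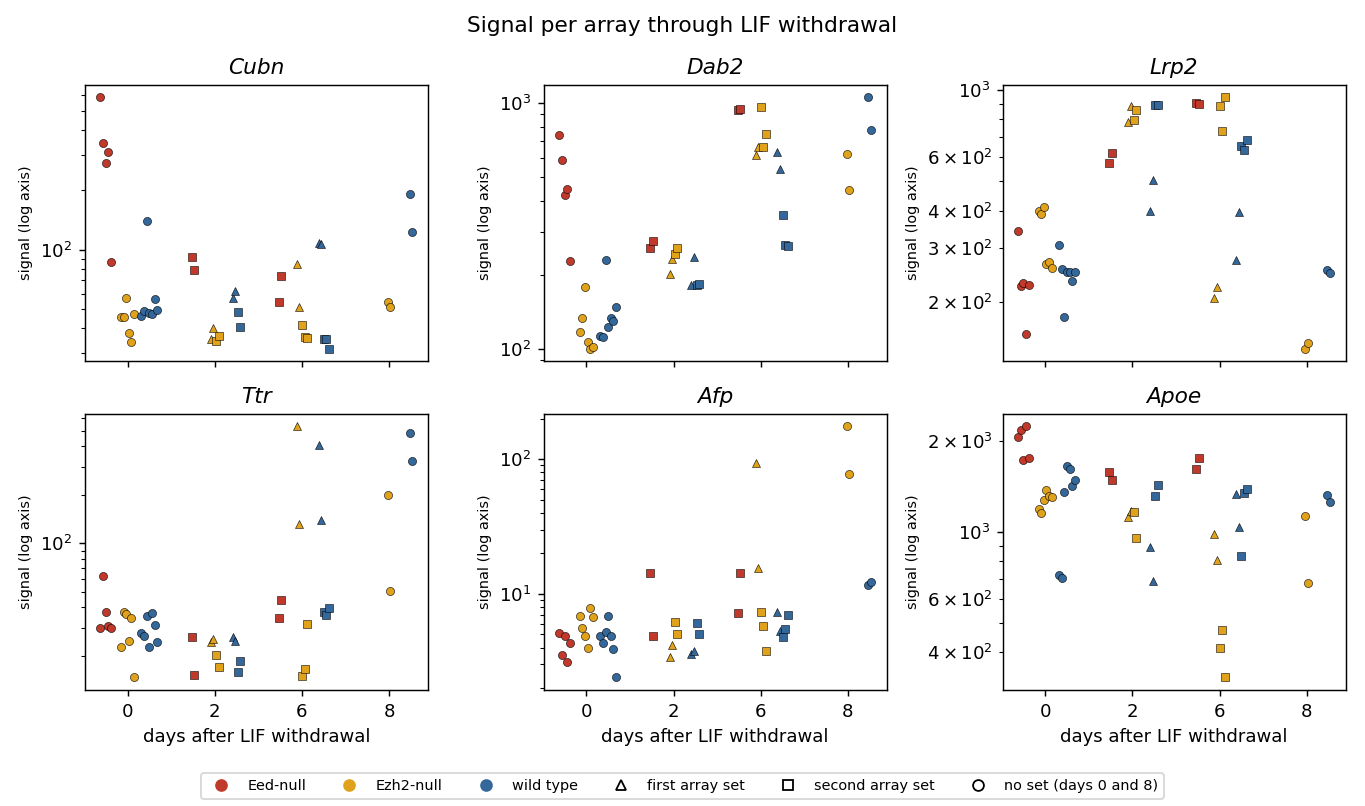
Signal per array (log axes) of 6 genes against days after LIF withdrawal, for Eed-null, Ezh2-null and wild-type cells, offset from left to right within a day; triangles and squares mark the first and the second array set of days 2 and 6. Cubn reads 86.6 to 583.9 in Eed-null arrays at day 0, 78.8 and 92.2 at day 2 and 54.5 and 73.3 at day 6, Dab2 is high at day 6 in all 3 genotypes, and Ttr and Afp are high only in some arrays of days 6 and 8.

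The secreted proteins split by day, array and genotype. Ttr was under the array median in all arrays of days 0 and 2 except Eed-null replicate 2 of day 0 (62.3). At day 6 it read 535, 132.1, 15, 16.5 and 31.4 in Ezh2-null arrays, against 408.6, 138.7, 37.7, 36 and 39.5 in wild-type arrays, so replicates 1 and 2 of both genotypes, the first set, were high and the others low. Wild-type replicates 1 to 3 are all J1 cells, and replicate 3, in the second set, was among the low ones. At day 8 it read 199.5 and 50.6 in Ezh2-null arrays, against 486.7 and 327.1 in the CJ7 wild-type arrays, a log2 fold change of -1.64 ± 0.64 (adjusted p = 0.202). The wild-type change from day 6 to day 8, 1.84 ± 0.53 (adjusted p = 0.0527), was not called at this probe set. It was called at 2 of the other Ttr probe sets, 1455913_x_at (1.76, adjusted p = 0.0384) and 1459737_s_at (1.14, adjusted p = 0.0413), and not at 1451580_a_at (0.73, adjusted p = 0.26). The day 8 arrays lie beside the first set on the array score, and that set already read 408.6 and 138.7 in wild-type cells at day 6. Day and array set are therefore mixed in this change at every probe set.

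At day 8 Afp was the 1 gene of the 8 past the limits of a call, as were 1.06% of all tested genes. Because Afp passed the filter on dim signals only through Ezh2-null arrays of days 6 and 8, where it is high, this is a description of those arrays and not an independent result. It read 176.2 and 77.9 in Ezh2-null arrays, against 11.7 and 12.2 in wild-type arrays, without overlap, as in 31.7% of all tested genes in this direction, a log2 fold change of 1.78 ± 0.27 (adjusted p = 2.71e-05). Both wild-type arrays lay under the array median, so no fold of signal is given. Ezh2-null replicate 1 of day 6 also read 93.9, against at most 15.6 in the other Ezh2-null arrays and 4.8 to 7.3 in wild-type arrays of that day. In Eed-null cells Afp read 14.4 and 4.9 at day 2 and 7.2 and 14.4 at day 6. Of its 4 other probe sets, 3 were also called higher at day 8, 1416646_at (1.25), 1436879_x_at (1.70) and 1436881_x_at (1.63), and 1436880_at gave -0.025.

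Afp and Ttr thus pointed in opposite directions at day 8, with Afp higher in Ezh2-null than in wild-type cells and Ttr lower without being called. In the fit with the replicate number as a block, and in that with the numbers crossed, 3 genes were called there, Afp higher and Cubn and Ttr lower. Those fits used only the day 8 arrays, which no label pairs, and same-numbered arrays deviated apart (correlation -0.20). They are no independent support for Cubn or Ttr, which were not called in the main fit. The limit on Afp given above holds for them too.

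Apoe was bright in all ES cell groups. At day 6 it read 983.2, 806.8, 413.7, 472.4 and 330.4 in Ezh2-null arrays, against 1332.5, 1036.9, 833.7, 1348.2 and 1384 in wild-type arrays, a log2 fold change of -1.03 ± 0.23 (adjusted p = 0.000617). The 3 low arrays are the second set: the change was -1.46 (adjusted p = 1.47e-05) there and -0.39 (adjusted p = 0.509) in the first. From day 0 to day 6 Apoe fell by 1.15 on the log2 scale in Ezh2-null cells (SE 0.22, adjusted p = 1.81e-05; 7.64% of all tested genes called lower), and by 0.49 in the first set alone, which was not called; without Ezh2-null replicate 5 of day 6 it was -0.97. Leaving out any of Ezh2-null replicates 3, 4 and 5 or wild-type replicates 1, 4 and 5 of day 6 takes the day 6 difference under 2-fold, at -0.86 to -0.98.

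Rbp4 group means ran between 120 in Sox1-GFP cells and 285 in wild-type cells at day 8. All wild-type arrays of day 6, at 184 to 214, lay above those of day 0, at 109 to 175, as in 18% of all tested genes, with a difference of 0.45 ± 0.15 (adjusted p = 0.0111), and Ezh2-null cells differed from their day 0 by 0.70 ± 0.16 (adjusted p = 0.000192), both below 2-fold over both array sets. In Ezh2-null cells Rbp4 read 246.6 and 410.4 in the first set of day 6 and 152 to 215.4 in the second. Wild-type Rbp4 split the other way at day 2, at 126.2 and 143.7 in the first set and 208.7 and 214 in the second. Apoa1 stayed between 5.4 and 49 in all 53 arrays.

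**Figure D4:**
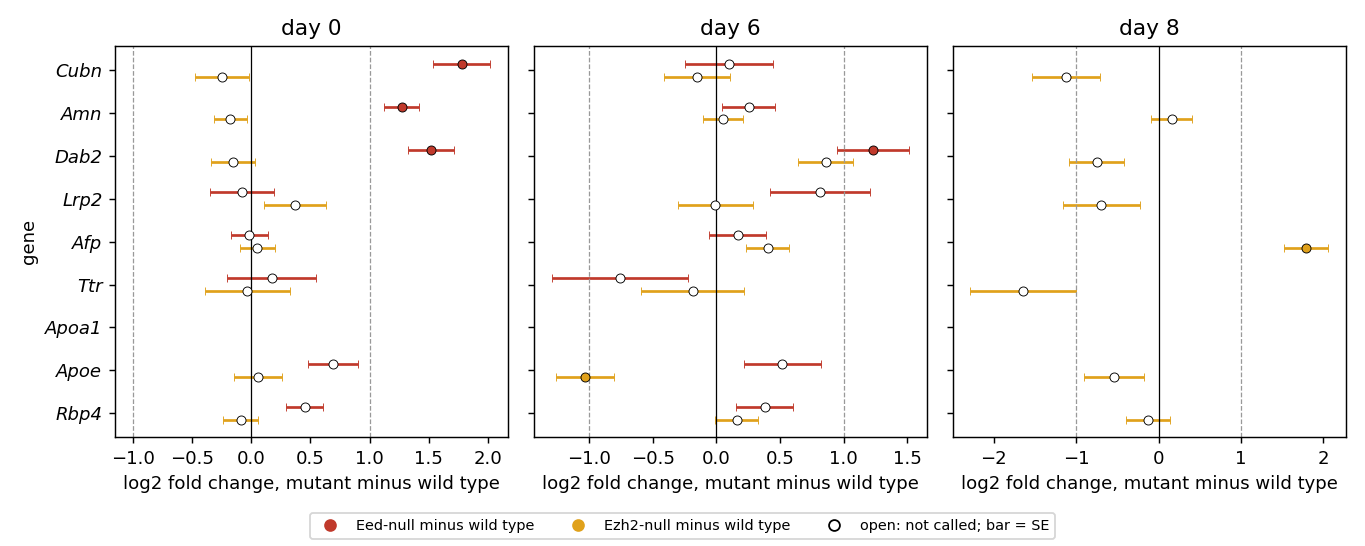
Log2 fold change of each mutant minus wild-type cells at days 0, 6 and 8 (horizontal axis; bar, SE), with filled points for called genes and dashed lines at 2-fold. The filled points are Cubn, Amn and Dab2 in Eed-null cells at day 0, Dab2 in Eed-null and Apoe in Ezh2-null cells at day 6, and Afp in Ezh2-null cells at day 8; Apoa1 was not tested, and day 8 has no Eed-null arrays.

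Endoderm regulators were set beside these genes over the same days. In wild-type cells 5 of 11 endoderm transcription factors rose between day 0 and day 6, among them Eomes (2.89 ± 0.29), Sox17 (2.51 ± 0.33), Gata6 (2.26 ± 0.15) and Gsc (2.06 ± 0.17), and the list median was 0.96, against 0.04 over all tested genes. Of 11 receptor partners 5 rose too, led by Clcn5 (1.63 ± 0.14), an endosomal chloride transporter, Tcn2 (1.10 ± 0.11), Vldlr (1.21 ± 0.15), a lipoprotein receptor, and Gipc1 (1.22 ± 0.19), an adaptor that binds megalin. Of the 10 tested other yolk sac and visceral endoderm genes Cited1 rose (3.00 ± 0.18), and Apoc1 (-1.31 ± 0.15) and Rhox5 (-2.38 ± 0.38) fell. At day 6 Ezh2-null cells had lower Eomes (-3.05 ± 0.31), Gsc (-1.90 ± 0.19) and Gata6 (-1.02 ± 0.17) than wild-type cells, as well as lower Cited1 (-1.95 ± 0.19), and no receptor partner was called (0 of 11). Eed-null cells had lower Eomes (-3.21 ± 0.41), Gsc (-1.83 ± 0.25) and Sox17 (-1.38 ± 0.47), and of the receptor partners Lrpap1, the chaperone of the megalin family, was higher (1.29 ± 0.32) and Lrp8 lower (-1.10 ± 0.30). Of the other yolk sac genes, Rhox5 (2.19 ± 0.55) and the apolipoprotein Apoc1 (1.02 ± 0.21) were higher in Eed-null cells at day 6 and Cited1 was lower (-1.02 ± 0.25). Both Eed-null arrays of day 6 are in the second array set, and the wild-type arrays are from both. Genotype and array set are therefore mixed in these Eed-null differences. Between day 6 and day 8 in wild-type cells, when Dab2 was called higher, none of the 11 factors was called higher and 2 fell, Eomes (-2.29 ± 0.41) and Gsc (-1.36 ± 0.25), with a list median of 0.0092. The day 8 arrays lie beside the first array set, so day and array set are mixed there. At day 8 Sox17 (-2.04 ± 0.56) and Cited1 (-2.12 ± 0.30) were lower in Ezh2-null cells. Eomes and Gsc are also genes of the primitive streak, of whose 9 tested genes 8 were lower in each mutant at day 6. The fibroblast sum at day 6 was 12678 to 18558 in Ezh2-null, 10042 to 10262 in Eed-null and 7827 to 12071 in wild-type arrays, and its part in the Dab2 levels was not tested.

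The 4 other cell types separated the genes further. Lrp2 read 851.6, 1013.8 and 1396.2 in Sox1-GFP neuronal progenitors, against 177.6 to 308.8 in wild-type ES cells at day 0 (1.99 ± 0.32, adjusted p = 1.49e-06). It read 12.9 and 12.2 in neuronal stem cells, a change of -4.62 ± 0.43 from Sox1-GFP cells (adjusted p = 3.47e-12). Megalin is also known as a receptor of the neuroepithelium. Apoe followed the same direction between the neural groups, at 40.9 and 45 in neuronal stem cells, against 625.2, 656 and 383.1 in Sox1-GFP cells (-2.93 ± 0.33, adjusted p = 8.66e-10).

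Against wild-type ES cells, Sox1-GFP cells had 3 of 8 genes called (13.4% of all tested genes), Lrp2 and Dab2 (1.01 ± 0.23) higher and Apoe (-1.13 ± 0.25) lower. Without Sox1-GFP replicate 3 only Lrp2 was called, with 0.81 for Dab2 and -0.89 for Apoe. Dab2 also fell under 2-fold, at 0.97 to 0.99, without wild-type replicate 1, 2, 4 or 6, and against J1 arrays alone Apoe differed by -0.38 (adjusted p = 0.324). Neuronal stem cells had 2 of 8 called against Sox1-GFP cells, where 14.3% of all tested genes were called. T-GFP cells had 0 of 8 called against wild-type ES cells (3 at an unadjusted p under 0.05, limma; 9.5% of all tested genes called), with Dab2 at 0.85 ± 0.27, Apoe at 0.75 ± 0.29 and Rbp4 at 0.54 ± 0.21, each at an adjusted p under 0.05. The 2 T-GFP arrays differed for Lrp2, at 161.1 and 593.8, and without replicate 1 a total of 2 genes were called.

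MEF had 3 of 8 genes called, where 24.1% of all tested genes were called. Dab2 read 1628.5 and 2053.1, against 111.8 to 228.6 in wild-type ES cells (3.46 ± 0.27, adjusted p = 9.07e-15), above every other array of the study. Lrp2 read 16.4 and 13.4 (-2.56 ± 0.37) and Apoe 10.1 and 9.1 (-4.91 ± 0.29).

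Across the 15 groups each gene had its own order of means (SD over the arrays of a group). Cubn was highest in Eed-null cells at day 0 (319 ± 178, n = 5), then in wild-type cells at day 8 (156 ± 47.6, n = 2) and Sox1-GFP cells (103 ± 64.2, n = 3), whose arrays overlapped in range. The 12 other groups averaged between 36.2 and 85.5. Amn was highest in the 3 Eed-null groups, at 152 ± 42.0, 91.7 ± 2.76 and 74.8 ± 21.1 for days 0, 2 and 6, with the neighbours overlapping, and lowest in MEF at 28.3. The Eed-null arrays of days 2 and 6 are all in the second array set, where Amn averaged higher than in the first in both other genotypes. Its second-set means were 84.1 in Ezh2-null and 79.75 in wild-type cells at day 2, and 78.6 and 63.3 at day 6. The order at days 2 and 6 therefore mixes genotype and array set. Dab2 was highest in MEF (1841 ± 300), above every other array, then in Eed-null cells at day 6 (944 ± 3.75) within the range of wild-type cells at day 8 (914 ± 198), and lowest in Ezh2-null cells at day 0 (123 ± 29.7).

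Lrp2 was highest in Sox1-GFP cells (1087 ± 280), a range that holds Eed-null cells at day 6 (903 ± 2.83), and lowest in neuronal stem cells (12.6 ± 0.49) and MEF (14.9 ± 2.12). Apoe was highest in T-GFP cells (2177 ± 957), a range that holds Eed-null cells at day 0 (1993 ± 235) and day 6 (1687 ± 105), and lowest in MEF (9.6 ± 0.71). Ttr was highest in wild-type cells at day 8 (407 ± 113), then in Ezh2-null cells at day 6 (146 ± 223), wild-type cells at day 6 (132 ± 161) and Ezh2-null cells at day 8 (125 ± 105), while the other 11 groups averaged between 20.7 and 39.5. Afp was highest in Ezh2-null cells at day 8 (127 ± 69.5) and day 6 (25.3 ± 38.6), whose arrays overlapped, and averaged at most 12.0 elsewhere. Apoa1 averages lay between 13.7 and 35.3.

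**Figure D5:**
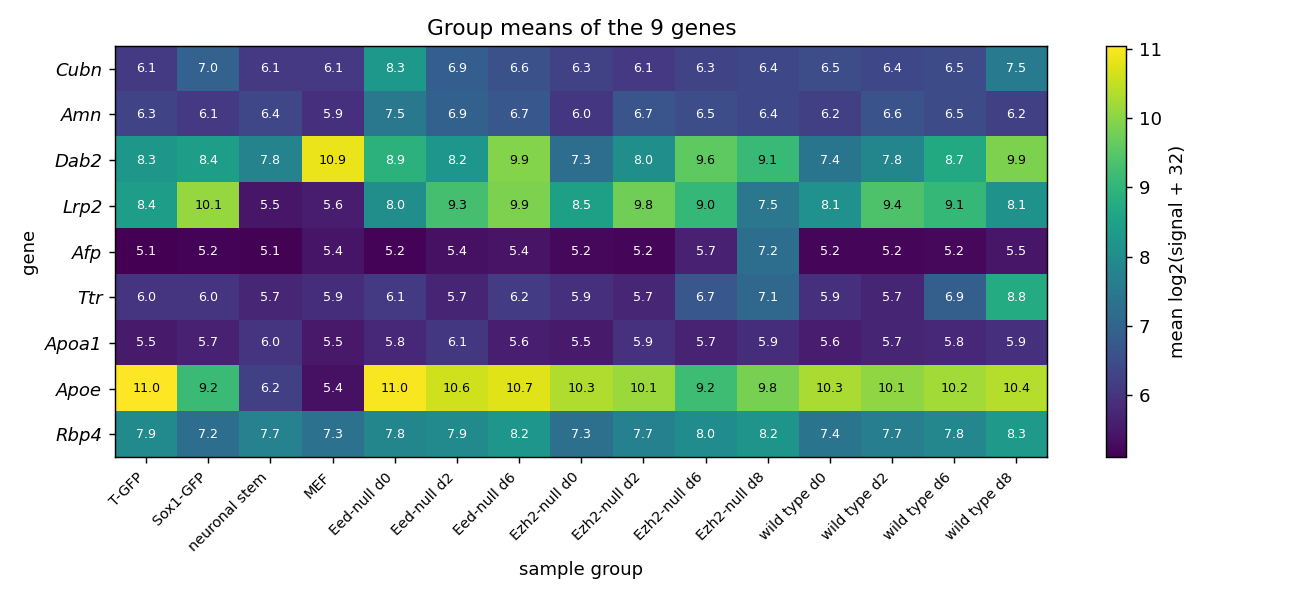
Mean of log2(signal + 32) for each gene (rows) in each of the 15 groups (columns), printed in the cells and given by colour. The brightest cells of Cubn and Amn are Eed-null day 0, those of Dab2 MEF, those of Lrp2 Sox1-GFP, those of Ttr wild type day 8 and those of Afp Ezh2-null day 8.

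The genes did not vary as 1 block. The 15 group means of log2(signal + 32) come from the same arrays for every gene. Over them, Pearson's r was 0.57 for Cubn and Amn, 0.18 for Cubn and Dab2, -0.04 for Amn and Dab2, 0.16 for Cubn and Lrp2, 0.39 for Afp and Ttr, and 0.74, the highest of all pairs, for Lrp2 and Apoe. Outside the set, the patterns most like that of Cubn were those of Gm11335 (0.86), Srgn (0.84) and Sult1c2 (0.82). For Amn they were Krtap19-4 (0.96), Pianp (0.95) and 5033417F24Rik (0.90), and for Dab2 Chst14, Man1a and Lgmn (each 0.94). Lrp2 was most like 1110004F10Rik (0.92), Tpd52l2 (0.91) and Fsd1 (0.90). Of the secreted proteins, Afp was most like Tac2 (0.91), Nepn (0.88) and Ppbp (0.83), Ttr like Hand2 (0.95), Fli1 (0.91) and Unc5c (0.91), Apoe like Trim71 (0.95), Rbpms (0.94) and Sall4 (0.94), and Rbp4 like Snhg11 (0.95), Cetn1 (0.93) and Nrk (0.92).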

How the data were processed

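RNA was isolated in Trizol and labelled as biotinylated cRNA for the arrays, per the labels' protocols. The deposited values are linear intensities, 1 for each probe set of an array (0.4 to 33985.898); the summary and scaling behind them are not given in the sources used here. They were used as deposited, since array medians lay between 50.5 and 63. Precision is limited by how many arrays a group has.

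Of 45037 probe sets, 34945 had 1 gene symbol in the platform annotation, 932 several and 9160 none; 34741 of the former matched a RefSeq gene by identifier. Genes were led by their brightest probe set, and 13807 of 18193 genes lay above the array median in at least 2 arrays and were tested. For 19 comparisons, limma 3.58.1 (R 4.3.3) estimated a mean for each group from log2(value + 32) over all 53 arrays, with 38 residual and 4.64 prior degrees of freedom. Adjustment by Benjamini-Hochberg covered all tested genes of a comparison. Calls needed a 2-fold difference and an adjusted p below 0.05. A pseudocount of 32 understates changes of dim genes. The procedure was tested on simulated data.

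The genes named are the 9 chosen for the report, their 3 most alike genes by group means, called genes of each list (the 4 of smallest p where over 4 were called), and Ezh2 and Eed. These genes and lists were chosen with earlier results of these data known, so no p is given over a list.

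The array score is the leading component (63.6% of the variance) of differences between probe sets of 1 gene over 3196 genes. Same-numbered replicates of Ezh2-null and wild-type cells deviated together at day 2 (correlations 0.57 to 0.70) and day 6 (0.38 to 0.72), following the array sets. Ezh2-null replicate 3 of day 2 and replicates 4 and 5 of day 6 were more like a wild-type array of another number. The correlations therefore show a shared array set and no pairs by number. No label pairs them, and the number was used as a block only among the alternatives. Alternatives changed the normalisation, pseudocount, filter, probe sets, trend, arrays fitted, blocks, wild-type lines, array sets, fold limit and each array in turn. Fits on 1 array set, without Eed-null replicate 5 and wild-type replicate 3, or with crossed numbers at day 8 were added after seeing the data.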

Additional observations from a re-analysis of the deposited data

Results flagged for a closer look

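Of 63 gene and group combinations with 4 to 10 arrays, 5 had an array far from the others of its group, where chance alone gives about 1 in 20. Cubn read 139.8 in wild-type replicate 3 of day 0 (next array 56.3), and Dab2 read 228.6 in the same array (next 148.0). Dab2 read 236.4 in wild-type replicate 2 of day 2 (next 184.2). Ttr read 62.3 in Eed-null replicate 2 of day 0 (next 37.2). Afp read 93.9 in Ezh2-null replicate 1 of day 6 (next 15.6).

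The change from day 0 to day 6 differed between a mutant and wild type in the test of that difference for 4 genes. Against wild type, the change in Ezh2-null cells was larger for Dab2 by 1.01 and lower for Apoe (-1.09) on the log2 scale. Against wild type, the change in Eed-null cells was lower for Cubn (-1.68) and Amn (-1.02).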

How the results depend on the processing

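The calls of Cubn, Amn and Dab2 in Eed-null against wild-type cells at day 0, and of Ezh2-null against Eed-null cells, kept their direction in every alternative except 1 Dab2 probe set (1429693_at, -0.072 and 0.074). Apart from calls by another probe set, 344 of 387 member results kept direction and call and 43 lost the call; leaving out 1 array at a time, 272 of 314 kept it and 42 lost it. By another probe set 18 of 48 kept the call, 25 lost it and 5 reversed, the others being Lrp2 in Eed-null cells from day 0 to day 6 (1445901_at, -0.019), Dab2 from day 6 to day 8 in wild type (1429693_at, -0.057) and Afp in Ezh2-null against wild-type cells at day 8 (1436880_at, -0.025). Centring arrays on their medians moved the median of all genes by -0.14 for Eed-null against wild type at day 0, 0.13 for Ezh2-null against Eed-null, -0.10 for Ezh2-null day 6 against day 0, -0.11 for MEF and 0.15 for the Eed-null change from day 0 to day 6; quantile normalisation moved it by -0.12 for Sox1-GFP cells and -0.11 for MEF.

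Counts of called genes among the 8 moved as follows; the cause was not tested, beyond the fewer genes, arrays or wider limit an alternative has by construction. Quantile normalisation gave 2 for wild type day 8 against day 6 and 1 for the Eed-null course. Centring gave 1 for each mutant's course. A pseudocount of 8 gave 3 for wild type day 6 against day 0, and the higher pseudocount gave 0 there, 0 for Ezh2-null cells against wild type at days 6 and 8 and for the Ezh2-null course, and 1 for the Eed-null course. The filter at the 75th percentile gave 2 for wild type day 8 against day 6, 0 for Ezh2-null cells against wild type at day 8, where Afp was not tested, and 1 for the Eed-null course. The mean of probe sets gave 0 for wild type at day 2 and day 6 against day 0 and for Eed-null against wild type at day 6, and 1 for the Ezh2-null course. Without a fold limit there were 5 for each Eed-null comparison at day 0, 2 and 4 for wild type at days 2 and 6 against day 0, 5 for Ezh2-null cells from day 0 to day 6, 2 for Ezh2-null cells against wild type at day 6 and 3 for T-GFP cells. Only the arrays compared gave 0 for wild type day 8 against day 6 and 3 for Ezh2-null at day 8. Cell line as a random block gave 3 for wild type day 8 against day 6 and 1 for the Eed-null course. Wild-type replicates 4 to 7 alone gave 0 for the Ezh2-null course. J1 arrays alone gave 0 and 2 for wild type at days 2 and 6 against day 0, 2 for T-GFP cells and 1 for each course. The first array set alone gave 0 and 2 for wild type at days 2 and 6 against day 0, 0 for day 8 against day 6, 4 for Ezh2-null day 6 against day 0 and 0 for its course. The second gave 4 for wild type day 8 against day 6 and 2 for Ezh2-null cells against wild type at day 6.

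The replicate block gave 2 for Eed-null against wild type at day 6, where Lrp2 (1.37) and Ttr (-1.94) replaced Dab2 (0.67), and 3 for Ezh2-null cells against wild type at day 8, as did the crossed pairing. It changed no other count. At day 6 the block matched the Eed-null arrays, of the second set, with wild-type replicates 1 and 2, of the first. Genotype and array set cannot be told apart in that fit. Wild-type Ttr read 138.7 and 408.6 in the first set and 36 to 39.5 in the second. Wild-type Lrp2 read 274.3 and 394.2 in the first and 633.6 to 682.1 in the second. Same-numbered arrays of the other comparisons did not all deviate together (-0.20 to 0.29). Leaving out 1 array at a time gave counts from 0 to 2 for T-GFP cells, 1 to 3 for Sox1-GFP cells, 1 to 2 for wild type day 6 against day 0, 0 to 3 for day 8 against day 6, 0 to 1 for Ezh2-null cells against wild type at day 6, 0 to 2 for the Ezh2-null course and 1 to 2 for the Eed-null course. Signal limits Apoa1, Afp and Ttr, which lay under the array median in 53, 50 and 45 of 53 arrays.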
